A study of Homo sapiens with 6 samples.

Results

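Antisense long noncoding RNAs (lncRNAs) were taken from the table as the rows whose symbol ends in -AS1, -AS2 or -AS3 and that held 200 or more counts summed over the 6 libraries, with EPB41L4A-AS1 left out. They were thus taken by name and selected on their summed counts. The sum does not use the difference between groups, but the counts of either group alone can carry it past the limit. The set was also chosen with earlier results of these data known. Of 1021 such symbols among 54259 rows, 178 met the limit, 427 were listed at 0 and 416 held fewer counts than the limit. By their names 170 were -AS1, 7 were -AS2 and 1 was -AS3. Just outside the limit lay AZIN1-AS1 with 188 counts, FGF14-AS2 with 193 and STX18-AS1 with 196. ACVR2B-AS1 with 204, LURAP1L-AS1 with 207 and NR2F2-AS1 with 209 lay just inside it. Each antisense RNA was compared with its sense gene, the gene whose symbol stands before the hyphen.

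The RNA came from MDA-MB-231, an established human cell line of mesenchymal, triple-negative breast cancer. Cells labelled shBry (3 libraries) carried a short hairpin RNA against brachyury, a T-box transcription factor, and cells labelled shNC (3 libraries) carried a control hairpin. The question of the comparison was which transcripts differ once brachyury is knocked down. One cell line stood behind both groups, and nothing in the labels said that the libraries of a group were separate cultures, so p-values measure the spread between these libraries, which may be technical.

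An antisense lncRNA is transcribed from the strand opposite to a neighbouring gene. Some overlap the exons of that gene, and others start beside its promoter and run the other way. Members of the class are known to act on their neighbour's chromatin, splicing or transcript stability, or to work at distant sites, and many are short-lived in the nucleus, where the RNA exosome and its adaptors degrade them. Some are also host genes, whose introns release small nucleolar RNAs.

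Between 19319411 and 22985371 counts were listed per library. Brachyury, listed under its older symbol T, had 0 counts in each of the 6 libraries, a value that would still leave room for 0.131 to 0.155 CPM depending on the library (3 counts each, counting error only). The knockdown could therefore not be read from its own target. The marker genes of MDA-MB-231 that should be high (VIM, CD44, MSN, CAV1, AXL and PLAU) lay between 79.7 and 4002 CPM in every library. ESR1, PGR and CDH1 had at most 2 counts, and 2 other epithelial genes were low but higher in every shBry library, EPCAM at 3.52 to 4.94 CPM against 0.967 to 1.89 CPM and ESRP1 at 5.12 to 7.70 CPM against 3.96 to 5.03 CPM. The submitters' short text on the series calls the RNA pericardial. Of 6 mesothelium markers, 2 were higher in every shBry library than in any shNC library, MSLN at 43.7 to 47.3 CPM against 28.0 to 34.9 CPM and LRRN4 at 6.25 to 8.05 CPM against 3.10 to 4.81 CPM. CALB2 was lower in every shBry library, with 14 to 21 counts against 29, 30 and, in shNC replicate 3, 222 counts. WT1 had at most 7 counts and UPK3B at most 5, and ITLN1 was at 0. Summed over the 6, the level was 50.7 to 55.5 CPM in shBry and 40.1 to 42.7 CPM in shNC. The 6 leukocyte markers had at most 3 counts. The part of these markers in the results was not tested, and the counts of calls are also given without shNC replicate 3.

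Promoter windows of the antisense RNAs with the largest changes are printed here to show what lies at their start sites. They come from RefSeq on GRCh38.p14, run from 250 bases before to 50 after the RefSeq start, and were found for 118 of the 178 antisense RNAs. The first 5 were chosen among the largest rises and falls because no more than 4 of their bases lie in exons of coding genes. The LURAP1L-AS1 window is shown because it held 4 of the 5 motifs searched. Capitals mark a motif on either strand, so that ATTGG stands for the box CCAAT read on the opposite strand, and TGAGTCA likewise for the AP-1 letters TGACTCA. The TATA box letters TATAAA and the longer motif TGATGCAA stand as such. Each sequence is the strand of the antisense RNA, 5' to 3'.
VLDLR-AS1, chr9:2622324-2622623, minus strand: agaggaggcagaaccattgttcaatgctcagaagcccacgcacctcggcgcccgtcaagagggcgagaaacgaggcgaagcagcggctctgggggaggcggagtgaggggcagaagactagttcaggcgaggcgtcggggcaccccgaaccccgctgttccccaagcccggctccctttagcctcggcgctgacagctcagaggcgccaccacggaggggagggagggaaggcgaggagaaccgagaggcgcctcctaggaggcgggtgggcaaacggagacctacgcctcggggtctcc
LRRC75A-AS1, chr17:16438737-16439036, plus strand: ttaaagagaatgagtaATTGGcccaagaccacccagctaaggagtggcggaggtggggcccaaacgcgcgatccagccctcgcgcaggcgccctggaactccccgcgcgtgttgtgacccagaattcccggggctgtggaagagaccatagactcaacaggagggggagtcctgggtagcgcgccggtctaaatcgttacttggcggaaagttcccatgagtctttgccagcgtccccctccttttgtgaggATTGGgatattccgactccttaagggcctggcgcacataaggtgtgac
NOP14-AS1, chr4:2935296-2935595, plus strand: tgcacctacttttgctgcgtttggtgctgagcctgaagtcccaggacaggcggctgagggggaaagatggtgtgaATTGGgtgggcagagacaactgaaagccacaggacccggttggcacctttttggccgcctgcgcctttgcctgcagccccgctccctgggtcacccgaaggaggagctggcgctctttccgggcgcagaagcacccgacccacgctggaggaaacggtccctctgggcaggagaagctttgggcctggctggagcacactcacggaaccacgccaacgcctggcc
BAIAP2-AS1, chr17:81034670-81034969, minus strand: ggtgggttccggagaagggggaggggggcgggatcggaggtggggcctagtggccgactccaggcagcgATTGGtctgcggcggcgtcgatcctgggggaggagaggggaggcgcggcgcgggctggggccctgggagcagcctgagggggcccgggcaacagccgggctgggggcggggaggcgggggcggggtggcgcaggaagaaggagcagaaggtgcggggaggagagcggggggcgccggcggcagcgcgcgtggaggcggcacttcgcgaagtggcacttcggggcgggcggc
SLCO4A1-AS1, chr20:62666572-62666871, minus strand: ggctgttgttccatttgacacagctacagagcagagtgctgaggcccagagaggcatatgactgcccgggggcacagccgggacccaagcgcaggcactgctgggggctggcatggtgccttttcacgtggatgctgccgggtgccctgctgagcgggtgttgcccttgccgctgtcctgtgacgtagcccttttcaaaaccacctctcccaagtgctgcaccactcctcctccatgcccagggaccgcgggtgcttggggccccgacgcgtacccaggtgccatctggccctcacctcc
LURAP1L-AS1, chr9:12814340-12814639, minus strand: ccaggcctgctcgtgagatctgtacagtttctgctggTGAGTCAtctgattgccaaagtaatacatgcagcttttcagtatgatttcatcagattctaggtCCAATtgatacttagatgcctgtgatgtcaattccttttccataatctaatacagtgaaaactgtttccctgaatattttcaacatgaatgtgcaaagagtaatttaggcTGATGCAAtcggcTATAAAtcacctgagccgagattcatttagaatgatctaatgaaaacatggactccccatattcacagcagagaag

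Start sites of these antisense RNAs were rich in GC. The median GC content was 66.8% over the 118 windows and 58.7% over all 35116 promoter windows of the RefSeq table. CCAAT, the letters of the NF-Y site, stood in 39 of the 118 windows (33.1%) and in 34.6% of all windows. TGACGTCA, the cyclic AMP response element, stood in 7 (5.93%) and in 1.85% of all windows, and none of these 7 belonged to an antisense RNA called higher. TATAAA stood in 6 (5.08%) and in 11.5%, TGACTCA, the AP-1 site, in 6 (5.08%) and in 4.95%, and TGATGCAA, an ATF4 composite site, in 1 (0.847%) and in 0.866%. By call, CCAAT stood in 7 of 36 windows of antisense RNAs called higher, in 3 of 13 called lower and in 29 of 69 not called. None of the 5 motifs contains another, and over 30 bases of coding exon lay in 65 of the 118 windows. These matches are descriptions of the letters only.

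Antisense RNAs were on balance higher in shBry cells. Differences over 15277 genes were tested with edgeR (quasi-likelihood F test, p adjusted after Benjamini and Hochberg). To be called, a gene needed an adjusted p under 0.05 and, after the study's methods, more than a 1.5-fold difference. All 178 passed the expression filter. Of them 74 (41.6%) were called, against 32.4% of all genes tested and 32.5% of the 13000 genes with 200 or more counts. The 53 called higher were 29.8% of the antisense RNAs, against 17.1% of all genes. The 21 called lower were 11.8%, against 15.2% of all genes. A further 17 passed the adjusted p but not the fold change limit. On the adjusted p alone the share was thus 91 of 178 (51.1%, 64 higher and 27 lower), against 53.3% of all genes, and with a limit of 2-fold it was 36 (20.2%), against 15.0%.

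The log2 fold change of shBry over shNC had a median of 0.27 over the 178 antisense RNAs and 0.03 over all genes tested. It ran from -2.19 to 4.84, and 117 (65.7%) of the values were above 0, against 52.3% over all genes. The 3 shBry values did not overlap the 3 shNC values for 110 (61.8%), against 59.5% of all genes, and for 72 of the 74 called, the others being CSTF3-AS1 and FOXP4-AS1. Of the 74, 57 were called in each of the 6 fits that left out 1 library. Without shNC replicate 3, 64 were called and the median was 0.24. The 92 LINC rows with 200 or more counts, intergenic lncRNAs by their names, had 35 called (38.0%), with a median of 0.10. Of the 92, 27 were called higher (29.3%) and 8 lower (8.70%), so a similar balance of calls was seen in these rows.

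**Figure D1:**
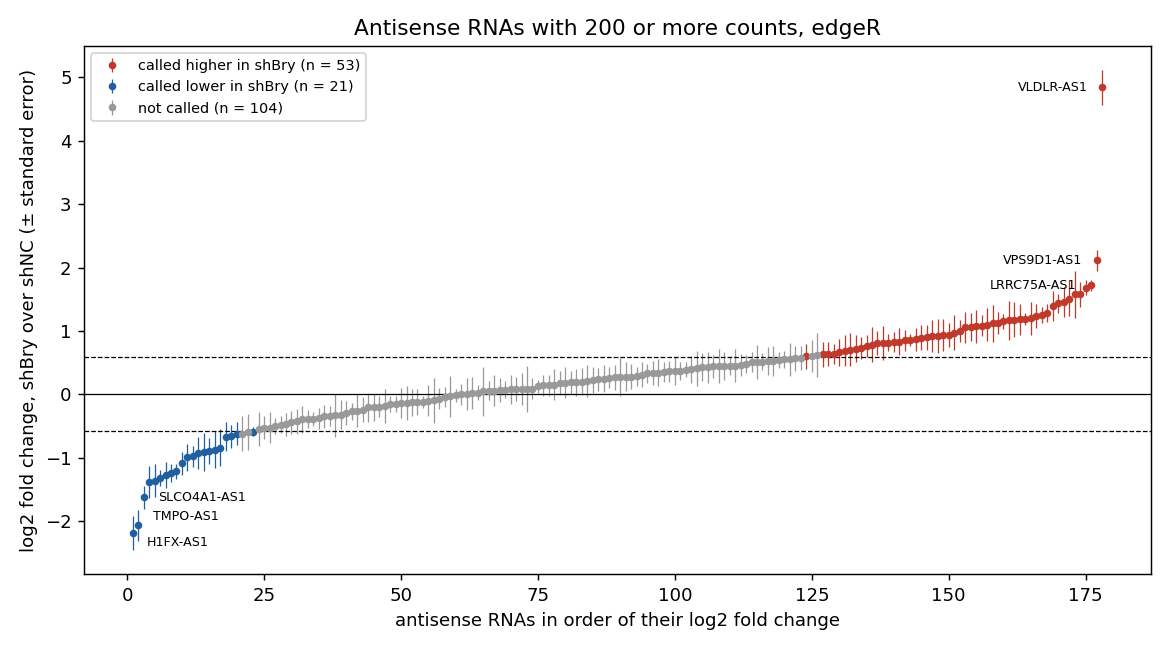
Log2 fold change of shBry over shNC (vertical axis, bars: standard error) for the 178 antisense RNAs in order of their value (horizontal axis). Red points are the 53 called higher, blue points the 21 called lower, grey points the 104 not called, and dashed lines mark a fold change of 1.5. The points run from -2.19 for H1FX-AS1 to 4.84 for VLDLR-AS1, which stands apart from the next value, 2.12 for VPS9D1-AS1.

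As a share of all counts, antisense RNAs took between 0.271% and 0.284% in shBry libraries and between 0.177% and 0.185% in shNC libraries. A single transcript carried most of that difference. LRRC75A-AS1 held 39.6% to 41.3% of the antisense counts in shBry and 18.2% to 20.4% in shNC. The summed mean level of the 178 was 2798 TMM-normalized CPM in shBry and 1794 in shNC, a ratio of 1.56, which was 1.15 without LRRC75A-AS1. The CPM below are all TMM-normalized, and in each series of 6 values the 3 shBry libraries come first, then the 3 shNC libraries, in the order of their replicate numbers.

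The most counted antisense RNA was LRRC75A-AS1 (chr17:16438822-16478678, plus strand; coordinates here and below are GENCODE 29 on GRCh38), which RefSeq names SNHG29, a small nucleolar RNA host gene. Its level was 1166, 1042 and 1191 CPM in shBry and 337, 378 and 319 CPM in shNC. The groups stood far apart, with a log2 fold change of 1.72 (SE 0.09, edgeR adjusted p = 2.1e-09). Its sense gene LRRC75A had 3.55, 3.498 and 4.43 CPM against 4.86, 4.44 and 4.11 CPM, overlapping groups that did not pass the test (log2 fold change -0.22, SE 0.19, edgeR adjusted p = 0.34). Per kb of exon LRRC75A-AS1 stood at 91.6 CPM in shNC and LRRC75A at 1.21 CPM, so the antisense RNA was by far the more abundant of the pair. Exon bases of LRRC75A make up 12.02% of the antisense exons.

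FGD5-AS1 (chr3:14920347-14948424, minus strand) was next in counts, beside FGD5, an exchange factor for Cdc42 that had only 4 counts in all. It had 102, 101 and 105 CPM in shBry and 154, 150 and 159 CPM in shNC. The tight groups did not overlap, and the fall of 0.59 on the log2 scale (SE 0.08, edgeR adjusted p = 1.64e-05) lay at the fold change limit, at 1.50-fold. NUP50-AS1 (chr22:45133020-45163781, minus strand) runs away from NUP50, a nuclear pore gene, and shares no exon base with another gene. It had 111, 114 and 124 CPM in shBry and 44.6, 55.5 and 52.6 CPM in shNC (log2 fold change 1.19, SE 0.10, edgeR adjusted p = 1.84e-07). NUP50 itself stood at 243, 226 and 232 CPM against 235, 225 and 241 CPM, with a log2 fold change of 0.00 (SE 0.07). The antisense RNA of this divergent pair was higher in every shBry library while the groups of NUP50 overlapped.

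The other 2 of the 5 most counted did not pass the test, and their sense genes did. MMP24-AS1 (chr20:35201745-35278131, minus strand; annotated as the coding gene MMP24OS) had 128, 98.1 and 114 CPM against 124, 118 and 104 CPM, overlapping groups with a log2 fold change of -0.02 (SE 0.10). MMP24, a membrane-type metalloproteinase gene, was under 1 CPM in all 6 libraries and was called lower (log2 fold change -1.84, SE 0.59, edgeR adjusted p = 0.0165). PAX8-AS1 (chr2:113211522-113276581, plus strand) had 69.3, 60.4 and 59.8 CPM against 70.8, 68.8 and 66.2 CPM, also overlapping, with a log2 fold change of -0.12 (SE 0.09). PAX8, a paired-box transcription factor gene, had 27.0, 20.8 and 23.4 CPM against 8.48, 8.18 and 7.16 CPM (log2 fold change 1.58, SE 0.14, edgeR adjusted p = 4.76e-07). The sense genes of these 2 pairs thus differed in opposite directions beside antisense RNAs whose groups overlapped.

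The rise of VLDLR-AS1 (chr9:2421597-2643359, minus strand) was larger than that of any other of the 178. It overlaps VLDLR, the very low density lipoprotein receptor gene, in 12.3% of its exon bases. It had 14.8, 10.3 and 15.1 CPM in shBry and 0.321, 0.709 and 0.351 CPM in shNC, a 28.7-fold difference on the fitted scale (log2 fold change 4.84, SE 0.28, edgeR adjusted p = 5.39e-09). Its shBry counts carried it past the limit on summed counts, and the size of the fold change rests on few shNC counts. VLDLR-AS1 gave no value where every library needed at least 10 counts, so its rise was not tested under that filter. Every shBry library stood above 10 CPM and every shNC library below 1 CPM. VLDLR had 47.7, 46.6 and 48.1 CPM against 28.4, 28.98 and 30.5 CPM, groups that did not overlap either (log2 fold change 0.70, SE 0.09, edgeR adjusted p = 2.29e-05). The ratio of VLDLR-AS1 to VLDLR, taken within each library, was 4.16 higher on the log2 scale in shBry (SE 0.33, limma adjusted p = 0.000178). Per kb of exon the antisense RNA stood at 2.45% of VLDLR in shNC and at 44.0% in shBry. The printed window of VLDLR-AS1 is at the RefSeq start, which lies inside the GENCODE gene and not at its start. That window held none of the 5 motifs. The printed window of NOP14-AS1 likewise lies inside its GENCODE gene and does not reach the start of that gene.

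VPS9D1-AS1 (chr16:89711856-89718165, plus strand) lies opposite VPS9D1, which encodes a protein with a VPS9 domain, and 29.5% of its exon bases are shared with it. It had 15.0, 12.4 and 12.99 CPM in shBry and 2.98, 3.55 and 2.75 CPM in shNC (log2 fold change 2.12, SE 0.17, edgeR adjusted p = 1.28e-07). The groups were clear of each other, and VPS9D1 differed by 0.12 (SE 0.10, edgeR adjusted p = 0.33). NOP14-AS1 (chr4:2934899-2961738, plus strand) overlaps NOP14, a nucleolar gene needed for small ribosomal subunit processing. It had 49.6, 40.6 and 42.8 CPM against 13.1, 14.3 and 13.9 CPM (log2 fold change 1.68, SE 0.12, edgeR adjusted p = 3.49e-08). NOP14 differed by 0.26 (SE 0.08, edgeR adjusted p = 0.0126), under the fold change limit, and the ratio within libraries differed by 1.42 (SE 0.18, limma adjusted p = 0.00121). The ratio of VPS9D1-AS1 to VPS9D1 differed by 1.99 (SE 0.19, limma adjusted p = 0.000278), so in both loci the antisense RNA changed relative to its partner.

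NRSN2-AS1 (chr20:320313-348224, minus strand) shares no exon base with NRSN2, a neurensin gene of vesicle membranes. It had 12.7, 8.30 and 11.5 CPM against 3.16, 3.36 and 4.31 CPM (log2 fold change 1.58, SE 0.20, edgeR adjusted p = 1.21e-05). PSMD5-AS1 (chr9:120824828-120854385, plus strand), annotated as the transcribed pseudogene CUTALP, lies by PSMD5, a chaperone gene of proteasome assembly. It had 14.9, 12.7 and 13.9 CPM against 5.13, 4.68 and 5.51 CPM (log2 fold change 1.44, SE 0.15, edgeR adjusted p = 1.99e-06). Neither pair of groups overlapped. The sense genes had log2 fold changes of -0.22 and -0.02 and were not called. NRSN2 passed the adjusted p (edgeR, 0.0496) but not the fold change limit.

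UGDH-AS1 (chr4:39528019-39594707, plus strand) lies opposite UGDH, the UDP-glucose dehydrogenase gene. It had 4.52, 4.13 and 6.38 CPM against 1.74, 2.27 and 1.70 CPM (log2 fold change 1.39, SE 0.23, edgeR adjusted p = 0.000186). Of its 50-base stretches 33.9% also occur in transcripts of other genes, so its counts are uncertain. TNRC6C-AS1 (chr17:78107398-78111799, minus strand) lies opposite TNRC6C, a scaffold gene of microRNA silencing, and 63.2% of its exon bases lie in exons of other genes. It had 19.2, 19.01 and 20.4 CPM against 8.16, 9.41 and 6.56 CPM (log2 fold change 1.28, SE 0.15, edgeR adjusted p = 5.3e-06). LBX2-AS1 (chr2:74502595-74504678, plus strand) overlaps the homeobox gene LBX2. It had 22.99, 21.1 and 24.6 CPM against 8.84, 10.1 and 10.1 CPM (log2 fold change 1.24, SE 0.13, edgeR adjusted p = 1.88e-06). All 3 were higher in every shBry library than in any shNC library, and none of UGDH, TNRC6C and LBX2 was called.

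In 3 further rises the sense gene rose as well. LURAP1L-AS1 (chr9:12698554-12814345, minus strand) had 1.78, 2.66 and 2.70 CPM against 0.321, 1.04 and 1.05 CPM (log2 fold change 1.58, SE 0.37, edgeR adjusted p = 0.00251). LURAP1L had 7.38, 6.53 and 7.27 CPM against 1.01, 1.47 and 1.40 CPM (log2 fold change 2.45, SE 0.21, edgeR adjusted p = 3.45e-07). With 207 counts in all, LURAP1L-AS1 was among the least counted, and its shBry counts carried it past the limit on summed counts. Its start window, printed with the others, held 4 of the 5 motifs. ITGB2-AS1 (chr21:44921051-44929678, plus strand), opposite the leukocyte integrin subunit gene ITGB2, had 7.38, 5.82 and 5.45 CPM against 1.10, 2.79 and 2.65 CPM (log2 fold change 1.51, SE 0.28, edgeR adjusted p = 0.000412). ITGB2 had 33.2, 28.2 and 29.97 CPM against 11.8, 11.3 and 11.3 CPM (log2 fold change 1.41, SE 0.12, edgeR adjusted p = 2.49e-07). The ratio of these 2 pairs did not pass limma's test (adjusted p = 0.117 and 0.685). SOCS2-AS1 (chr12:93542463-93571768, minus strand), opposite the cytokine signalling suppressor SOCS2, had 4.63, 5.02 and 3.59 CPM against 1.92, 1.18 and 1.70 CPM (log2 fold change 1.46, SE 0.24, edgeR adjusted p = 0.00018). SOCS2 rose by 0.77 (SE 0.11, edgeR adjusted p = 5.02e-05).

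**Figure D2:**
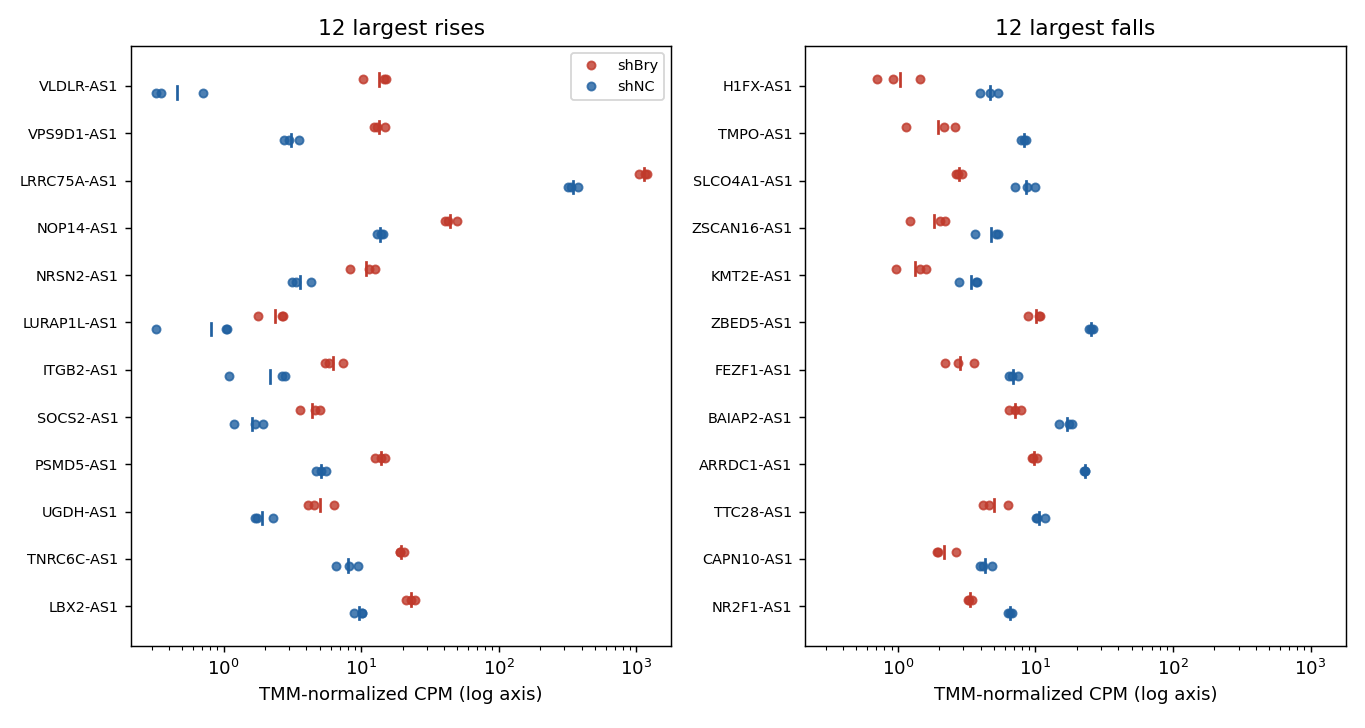
TMM-normalized CPM on a log axis in each library for the 12 largest rises (left) and the 12 largest falls (right) among called antisense RNAs with no overlap between groups. Points are libraries (red shBry, blue shNC, 3 each) and upright lines are group means. LRRC75A-AS1 stands above 1000 CPM in shBry while most of the others lie below 30 CPM.

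Among the falls, H1FX-AS1 (chr3:129315392-129326225, plus strand) had the most negative log2 fold change. It lies opposite H1FX, a linker histone gene, with 10.1% of its exon bases shared. It had 1.45, 0.927 and 0.709 CPM in shBry and 5.31, 3.97 and 4.66 CPM in shNC, a 4.56-fold difference (log2 fold change -2.19, SE 0.27, edgeR adjusted p = 1.21e-05). Its shNC counts carried it past the limit on summed counts. H1FX was slightly higher in shBry, at 168, 155 and 168 CPM against 140, 147 and 137 CPM (log2 fold change 0.21, SE 0.08, edgeR adjusted p = 0.0316), under the fold change limit. The ratio of antisense to sense fell by 2.41 (SE 0.32, limma adjusted p = 0.00134).

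TMPO-AS1 (chr12:98512973-98516422, minus strand) lies opposite TMPO, which encodes lamina-associated polypeptides, and shares 21.2% of its exon bases with it. It had 2.15, 1.14 and 2.62 CPM in shBry and 7.88, 8.60 and 8.26 CPM in shNC (log2 fold change -2.07, SE 0.24, edgeR adjusted p = 7.2e-06). TMPO had 69.9, 97.8 and 85.9 CPM against 160, 180 and 215 CPM (log2 fold change -1.13, SE 0.13, edgeR adjusted p = 4.19e-06). Both genes of the locus thus fell, with no overlap between groups. SLCO4A1-AS1 (chr20:62663019-62666724, minus strand) lies opposite the organic anion transporter gene SLCO4A1. It had 2.91, 2.66 and 2.75 CPM against 9.94, 8.65 and 7.11 CPM (log2 fold change -1.63, SE 0.18, edgeR adjusted p = 4.98e-06). SLCO4A1 had 11.7, 12.1 and 12.8 CPM against 49.4, 49.5 and 38.2 CPM (log2 fold change -1.91, SE 0.13, edgeR adjusted p = 2.44e-08).

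FEZF1-AS1 (chr7:122303658-122310077, plus strand) lies opposite FEZF1, a zinc finger transcription factor gene of forebrain development. It had 2.75, 3.58 and 2.22 CPM against 7.51, 6.71 and 6.46 CPM (log2 fold change -1.27, SE 0.20, edgeR adjusted p = 0.000118). FEZF1 itself stood at no more than 1.23 CPM in any library and was called lower too (log2 fold change -1.81, SE 0.48, edgeR adjusted p = 0.00544). NR2F1-AS1 (chr5:93409359-93585648, minus strand) overlaps NR2F1, the nuclear receptor gene COUP-TFI, in 2.05% of its exon bases. It had 3.28, 3.46 and 3.24 CPM against 6.37, 6.81 and 6.56 CPM (log2 fold change -0.98, SE 0.17, edgeR adjusted p = 0.000237). NR2F1 had 2.05, 2.99 and 3.10 CPM against 10.54, 10.9 and 12.1 CPM (log2 fold change -2.03, SE 0.18, edgeR adjusted p = 5.73e-07). The sense gene fell further than the antisense RNA, and their ratio was 1.07 higher in shBry (SE 0.22, limma adjusted p = 0.00729).

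A further 6 large falls stood beside sense genes that were not called, and ARRDC1-AS1, whose sense gene was called higher, is described with the opposite pairs. BAIAP2-AS1 (chr17:81029130-81034881, minus strand) is divergent from BAIAP2, a gene of actin and membrane remodelling, and shares no exon base with another gene. It had 7.91, 6.45 and 7.14 CPM against 18.4, 17.5 and 14.8 CPM (log2 fold change -1.24, SE 0.14, edgeR adjusted p = 6.64e-06), while BAIAP2 differed by 0.03 (SE 0.10). ZBED5-AS1 (chr11:10858259-10906802, plus strand) had 10.7, 8.85 and 10.9 CPM against 26.2, 25.2 and 24.4 CPM (log2 fold change -1.32, SE 0.13, edgeR adjusted p = 1e-06). ZBED5 encodes a zinc finger protein derived from a transposase. TTC28-AS1 (chr22:27919376-28008581, plus strand) had 4.58, 4.17 and 6.30 CPM against 10.03, 10.4 and 11.7 CPM (log2 fold change -1.09, SE 0.18, edgeR adjusted p = 0.000135). In these 3 pairs the ratio also fell, by 1.26, 1.02 and 1.03 (limma adjusted p = 0.0014, 0.0187 and 0.0116).

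ZSCAN16-AS1 (chr6:28121795-28137293, minus strand) had 2.21, 1.22 and 2.04 CPM against 5.18, 5.34 and 3.66 CPM (log2 fold change -1.39, SE 0.26, edgeR adjusted p = 0.000405). Its sense gene encodes a zinc finger protein with a SCAN domain. KMT2E-AS1 (chr7:105013425-105014321, minus strand), opposite the chromatin regulator gene KMT2E, had 1.45, 0.969 and 1.596 CPM against 3.71, 3.78 and 2.80 CPM (log2 fold change -1.36, SE 0.26, edgeR adjusted p = 0.000542). The shNC counts carried KMT2E-AS1 past the limit on summed counts. CAPN10-AS1 (chr2:240582700-240586699, minus strand), divergent from the calpain gene CAPN10, had 2.64, 1.94 and 1.95 CPM against 4.86, 4.16 and 3.96 CPM (log2 fold change -0.999, SE 0.22, edgeR adjusted p = 0.00137). In none of these 3 antisense RNAs did the groups overlap. Of their sense genes, KMT2E and CAPN10 were also lower but under the fold change limit. KMT2E had a log2 fold change of -0.42 (SE 0.16, edgeR adjusted p = 0.036) and CAPN10 of -0.43 (SE 0.13, edgeR adjusted p = 0.0122). The ratio to the sense gene passed limma's test for ZSCAN16-AS1 (adjusted p = 0.0164) and not for the other 2 (adjusted p = 0.0649 and 0.0621).

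Outside the rule for named antisense RNAs there were 35 further called higher, with log2 fold changes from 0.60 to 1.24, and 8 further called lower, from -0.93 to -0.63.

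The sense genes did not show the same balance of calls. Of the 173 sense genes with a row in the table, 159 were tested and 42 (26.4%) were called, against 32.4% of all genes tested. Of these 20 were higher and 22 lower, with a median log2 fold change of 0.01 and a range from -2.37 to 2.45, and 41 were called without shNC replicate 3. On the adjusted p alone 92 (57.9%) passed, against 53.3% of all genes. For 18 antisense RNAs no pair could be tested, because the sense gene had no row (3) or too few counts (15, of which 6 listed at 0). That left 160 pairs.

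Changes of the 2 genes of a pair went together only loosely. Their log2 fold changes had the same sign in 90 pairs and opposite signs in 70, with a Spearman correlation of 0.16 and a Pearson correlation of 0.22 across the 160 pairs, which share the same 6 libraries. Of 70 antisense RNAs called in these pairs, 53 had a sense gene that was not called. In 17 pairs both genes were called, 11 in the same direction and 6 in opposite directions. In 25 pairs only the sense gene was called, and in 65 neither.

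The ratio of antisense to sense was tested within libraries with limma, as the difference of their log2 CPM, over the 264 antisense pairs of the table that passed the filter. It was called at an adjusted p below 0.05 and a ratio change above 1.5-fold. It changed in 65 of the 160 pairs (40.6%), against 38.3% of the 264 pairs, which include these 160. Without the expression filter it changed in 36 (21.3% of 169), against 9.44% of 551 pairs, and without shNC replicate 3 in 50 (30.9% of 162), against 27.8% of 277 pairs. It was higher in shBry in 46 pairs and lower in 19. By call, the ratio changed in 32 of the 53 pairs in which only the antisense RNA was called, in 17 of the 25 in which only the sense gene was, in 8 of the 17 in which both were, and in 8 of the 65 in which neither was.

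**Figure D3:**
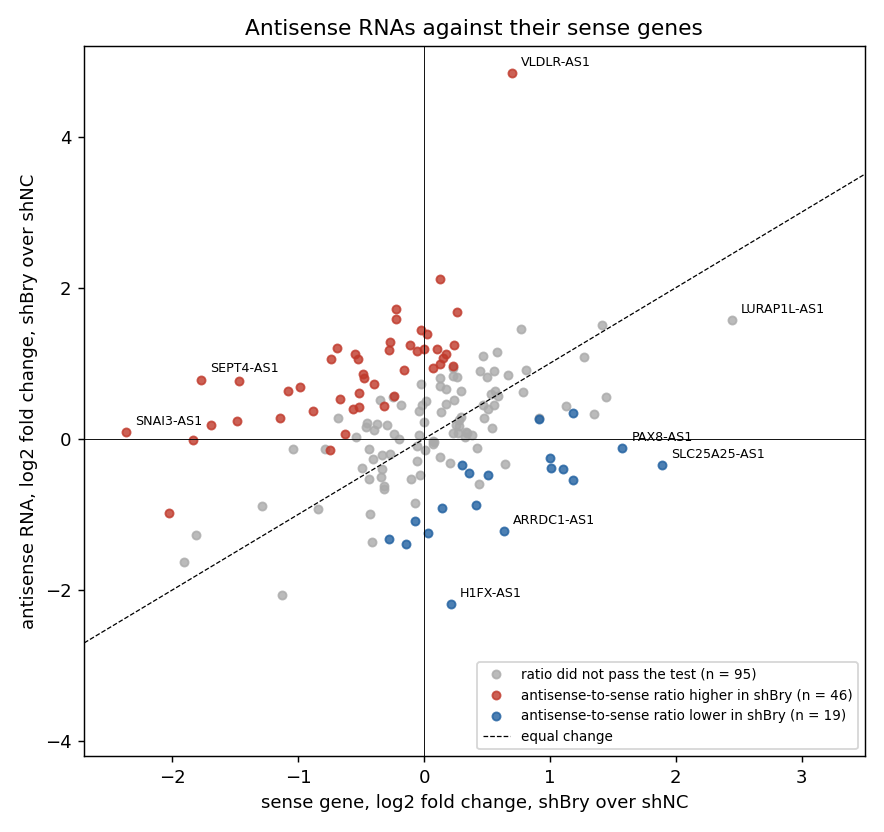
Log2 fold change of each antisense RNA (vertical axis) against that of its sense gene (horizontal axis), shBry over shNC, for the 160 pairs in which both were tested. Red points are the 46 pairs whose antisense-to-sense ratio was higher in shBry, blue points the 19 whose ratio was lower, and grey points the 95 others, with a dashed line for equal change. The cloud is wide around the dashed line (Spearman correlation 0.16).

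In 6 pairs the antisense RNA and the sense gene were called in opposite directions, and in 5 of them the antisense RNA was the higher one in shBry. MZF1-AS1 (chr19:58559129-58574797, plus strand) had 4.15, 2.70 and 4.43 CPM in shBry and 2.02, 1.37 and 1.50 CPM in shNC (log2 fold change 1.20, SE 0.26, edgeR adjusted p = 0.00151). Exons of MZF1 hold 39.8% of its exon bases. MZF1, a zinc finger gene of myeloid cells, had 14.5, 16.4 and 15.0 CPM against 25.4, 28.6 and 20.1 CPM (log2 fold change -0.69, SE 0.14, edgeR adjusted p = 0.0008). ZFPM2-AS1 (chr8:105546089-106060524, minus strand) had 11.4, 13.95 and 9.89 CPM against 5.86, 6.997 and 7.96 CPM (log2 fold change 0.76, SE 0.17, edgeR adjusted p = 0.00178). ZFPM2, which encodes the GATA cofactor FOG2, had 0.969, 0.801 and 0.754 CPM against 2.57, 2.69 and 1.70 CPM (log2 fold change -1.47, SE 0.30, edgeR adjusted p = 0.000802). In both loci every shBry library was above every shNC library for the antisense RNA and below it for the sense gene. The ratios were 1.86 and 2.17 higher (SE 0.31 and 0.33, limma adjusted p = 0.00239 and 0.00179).

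ARRDC1-AS1 (chr9:137615332-137618906, minus strand) went the other way. It had 9.69, 9.40 and 10.2 CPM in shBry and 23, 22.8 and 22.5 CPM in shNC (log2 fold change -1.22, SE 0.12, edgeR adjusted p = 1.22e-06). ARRDC1, an arrestin-domain gene of membrane vesicle budding, had 73.4, 60.9 and 65.7 CPM against 45.2, 47.3 and 36.3 CPM (log2 fold change 0.63, SE 0.11, edgeR adjusted p = 0.000282). Neither gene's groups overlapped, the ratio fell by 1.86 (SE 0.20, limma adjusted p = 0.000449), and the 2 share 1.22% of the antisense exon bases.

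The other 3 opposite pairs were weaker on the antisense side. SEPT4-AS1 (chr17:58519837-58556977, plus strand) had 1.62, 2.36 and 2.17 CPM against 1.10, 1.13 and 1.35 CPM (log2 fold change 0.78, SE 0.27, edgeR adjusted p = 0.0258). The shBry counts of SEPT4-AS1 carried it past the limit on summed counts. SEPT4, a septin gene, had 1.13, 0.464 and 0.709 CPM against 2.11, 2.79 and 2.85 CPM (log2 fold change -1.77, SE 0.33, edgeR adjusted p = 0.000401). Exons of other genes hold 80.1% of the SEPT4-AS1 exon bases, 15.4% of them in SEPT4, and the call was lost with DESeq2 (adjusted p = 0.078) and without shBry replicate 2 or 3 or shNC replicate 1 or 2 (edgeR adjusted p between 0.0679 and 0.0891).

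ATP6V1B1-AS1 (chr2:70941817-70948610, minus strand) had 8.72, 5.44 and 6.38 CPM against 5.09, 3.97 and 4.16 CPM (log2 fold change 0.63, SE 0.20, edgeR adjusted p = 0.0176). Exons of other genes on the same strand hold 78.8% of its exon bases, so its counts are uncertain. ATP6V1B1, a proton pump subunit gene, fell by 1.08 (SE 0.26, edgeR adjusted p = 0.00309). The antisense call was lost without shBry replicate 1 or shNC replicate 2 or 3 (edgeR adjusted p = 0.0991, 0.0798 and 0.0636). LIPE-AS1 (chr19:42397128-42652355, plus strand) had 3.71, 2.53 and 4.34 CPM against 2.29, 2.41 and 1.85 CPM (log2 fold change 0.69, SE 0.25, edgeR adjusted p = 0.0304). Of its exon bases 41.5% lie in exons of other genes. LIPE, the hormone-sensitive lipase gene, fell by 0.99 (SE 0.19, edgeR adjusted p = 0.000684). That antisense call was lost with DESeq2 (adjusted p = 0.0578) and without each library other than shBry replicate 2 (edgeR adjusted p between 0.0552 and 0.146). The ratio of antisense to sense was called in all 3 pairs, with differences of 2.55, 1.70 and 1.65 (limma adjusted p = 0.00218, 0.00138 and 0.00293).

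Among the 11 pairs called in the same direction, VLDLR-AS1, LURAP1L-AS1, ITGB2-AS1 and SOCS2-AS1 rose and TMPO-AS1, SLCO4A1-AS1, FEZF1-AS1 and NR2F1-AS1 fell with their sense genes, as given above. The last 3 are named here after their values were seen. ZEB1-AS1 rose by 0.85 (SE 0.17, edgeR adjusted p = 0.000678) and ZEB1, a transcription factor of the mesenchymal state, by 0.67 (SE 0.15, edgeR adjusted p = 0.00159). GAS6-AS2 fell by 0.93 (SE 0.25, edgeR adjusted p = 0.00668) and GAS6, the ligand of the AXL receptor, by 0.84 (SE 0.08, edgeR adjusted p = 6.94e-07). TP73-AS1 fell by 0.89 (SE 0.20, edgeR adjusted p = 0.00178) and TP73, a gene of the p53 family, by 1.29 (SE 0.20, edgeR adjusted p = 7.77e-05). In 9 of the 11 the ratio was not called, and it was called for VLDLR-AS1 and NR2F1-AS1.

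Where only the sense gene was called, it was higher in 14 pairs and lower in 11. A few with large differences, chosen after their values were seen, show the pattern. SNAI3-AS1 had 6.03, 5.90 and 5.90 CPM against 5.50, 6.24 and 5.06 CPM (log2 fold change 0.08, SE 0.16). SNAI3, of the Snail family of transcription factors, had 0.592, 0.717 and 0.488 CPM against 3.80, 2.79 and 2.75 CPM (log2 fold change -2.37, SE 0.29, edgeR adjusted p = 1.08e-05). GTSE1-AS1 stood between 2.51 and 5.01 CPM in all libraries with overlapping groups, while GTSE1, a gene of the G2 phase, had 136, 118 and 139 CPM against 440, 416 and 415 CPM (log2 fold change -1.69, SE 0.08, edgeR adjusted p = 1.5e-09).

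SLC25A25-AS1 had 3.77, 3.75 and 3.33 CPM against 4.86, 4.59 and 4.36 CPM and did not pass the test (log2 fold change -0.35, SE 0.18, edgeR adjusted p = 0.12). SLC25A25, a mitochondrial carrier gene, had 61.5, 50.7 and 53.4 CPM against 15.6, 14.9 and 14.1 CPM (log2 fold change 1.89, SE 0.11, edgeR adjusted p = 7.07e-09). Their ratio fell by 2.23 (SE 0.19, limma adjusted p = 0.000184). EIF3J-AS1, divergent from the translation initiation gene EIF3J, had a log2 fold change of -0.40 (SE 0.14, edgeR adjusted p = 0.03), under the fold change limit. EIF3J rose by 1.10 (SE 0.16, edgeR adjusted p = 5.13e-05).

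The arrangement of the pairs was read from the annotation, in which 175 of the 178 antisense RNAs were matched (17 of them under a newer name ending in -DT, for divergent transcript). Of all 178, 112 share exon bases with the sense gene on the opposite strand, 40 are divergent (start sites within 1000 bases, no shared exon base), 3 lie inside the sense gene with no shared exon base, 17 are in none of these arrangements and 6 lack an annotation for 1 of the pair. Over all genes 17.1% were called higher and 15.2% lower. In the exon-sharing class 33 were called higher (29.5%) and 13 lower (11.6%), with a median log2 fold change of 0.30. In the divergent class 12 of 40 were higher and 6 lower (15.0%, close to the share over all genes), with a median of 0.18. In the class of none of these 6 were higher (35.3%) and 1 lower (5.88%), with a median of 0.20. The difference between classes was not tested.

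**Figure D4:**
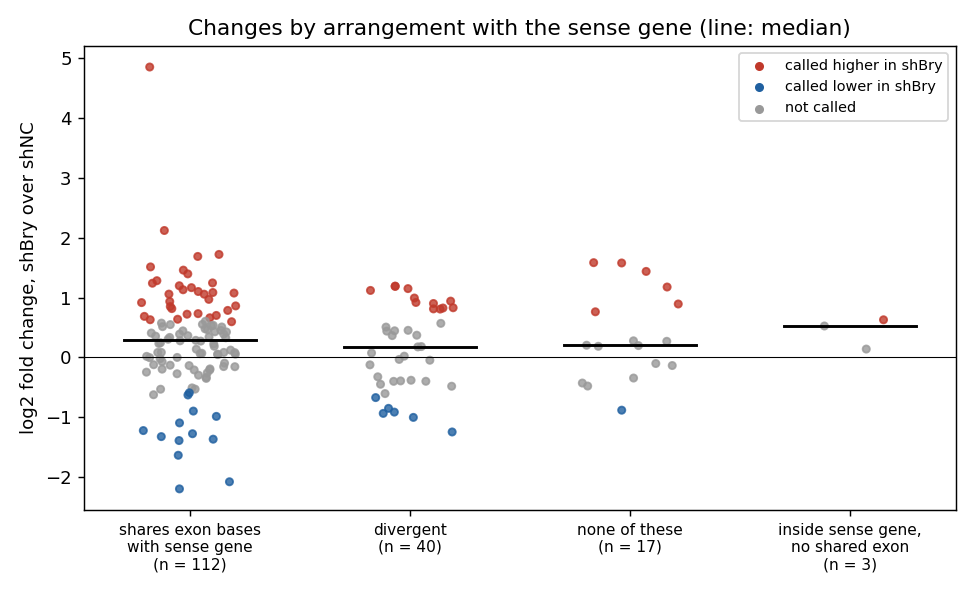
Log2 fold change of shBry over shNC (vertical axis) for antisense RNAs by their arrangement with the sense gene (horizontal axis), 1 point for each antisense RNA and a line at the median. Medians were 0.30 where exon bases are shared (112), 0.18 in divergent pairs (40) and 0.20 in none of these arrangements (17), and the 6 with no annotation for the pair are not drawn.

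Pairs that share exon bases had the larger same-sign share and correlation, a difference that was not tested. This class also holds pairs with start sites within 1000 bases, because any shared exon base put a pair in it. EXOC3-AS1, for example, starts 2 bases from EXOC3 and shares 3 exon bases with it. Their log2 fold changes had the same sign in 64 of 101 pairs, with a Spearman correlation of 0.25, and divergent pairs had the same sign in 19 of 39, with 0.06. By the share of antisense exon bases inside the sense gene, the correlation was 0.29 over 30 pairs sharing 20% or more, 0.22 over 71 pairs sharing less and 0.03 over 55 pairs sharing none. Whether reads were counted by strand is not given in the sources used here, so reads of shared exon bases from the 2 genes cannot be told apart. In the 44 antisense RNAs with no exon base in any other gene, 15 were called higher (34.1%, against 17.1% of all genes) and 5 lower (11.4%, against 15.2%), with a median of 0.32.

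Antisense RNAs were mostly less abundant than their sense genes. Per kb of exon, the median antisense level was 36.2% of the sense level in shNC and 39.7% in shBry, over 156 pairs with a length for both genes. The antisense RNA was the more abundant in 42 pairs in shNC and in 47 in shBry. Left out of this comparison were the 18 antisense RNAs whose sense gene was not tested. FGD5-AS1, with 16395 counts beside 4 for FGD5, was among them. At the top of the 156 pairs stood MMP24-AS1 and LRRC75A-AS1, beside sense genes at 0.168 and 1.21 CPM per kb in shNC. At the other end, H1FX-AS1 stood at 1.36 CPM per kb in shNC beside 93.7 for H1FX. Per kb of exon, NUP50-AS1 passed its sense gene, from 80.1% of the level of NUP50 in shNC to 183% in shBry. In CPM without the division by length, NUP50-AS1 stayed below NUP50 in every library. The levels per kb rest on the merged exons of each GENCODE gene (2263 bases for NUP50-AS1 and 8318 for NUP50).

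**Figure D5:**
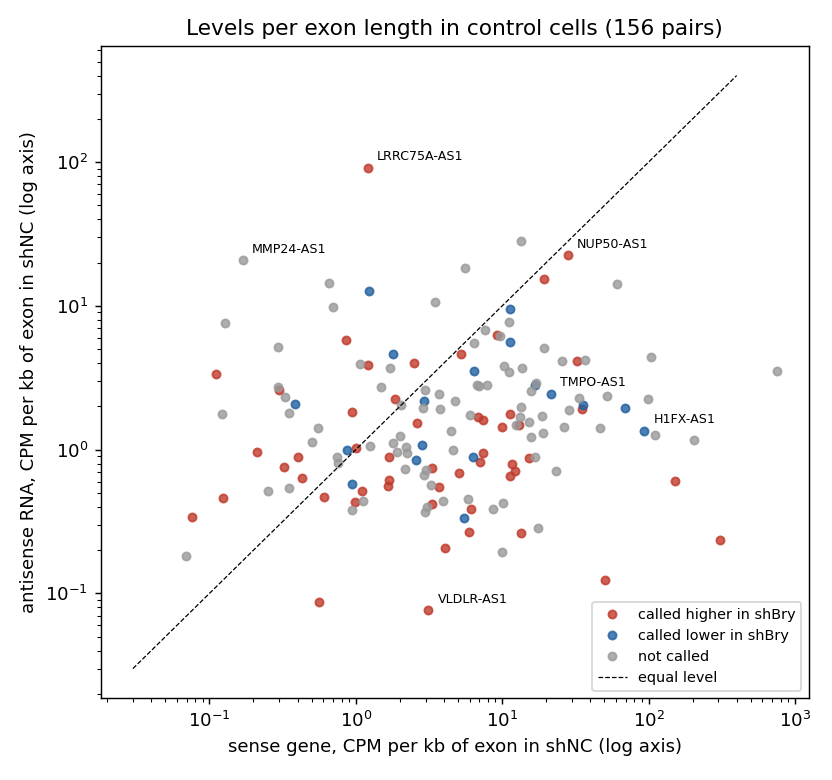
Level of each antisense RNA (vertical axis) against that of its sense gene (horizontal axis) in shNC cells, in CPM per kb of exon on log axes, for 156 pairs. Red points were called higher in shBry, blue lower and grey not called, and the dashed line marks equal levels. Points above the line are the 42 pairs with the antisense RNA more abundant.

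Genes of nuclear RNA decay were examined as a list of 31, because they set the lifetime of many antisense RNAs. DXO was listed at 0 counts, and of the 30 tested 5 (16.7%) were called, 4 higher and 1 lower, against 32.4% of all genes, with a median log2 fold change of -0.03. On the adjusted p alone 14 (46.7%) passed, against 53.3% of all genes, and without shNC replicate 3 the calls numbered 6. SRRT, which encodes the ARS2 adaptor of capped nuclear RNA, had 73.3, 68.3 and 71.2 CPM in shBry and 153, 139 and 141 CPM in shNC (log2 fold change -1.02, SE 0.08, edgeR adjusted p = 1.42e-07). EXOSC8, an exosome core subunit, had 88.7, 73.8 and 88.1 CPM against 41.1, 46.6 and 43.9 CPM (log2 fold change 0.93, SE 0.10, edgeR adjusted p = 2.53e-06). ZCCHC8, a subunit of the nuclear exosome targeting complex, had 56.8, 53.8 and 52.2 CPM against 27.1, 29.3 and 33.3 CPM (log2 fold change 0.86, SE 0.10, edgeR adjusted p = 7.6e-06). These 3 genes had no overlap between groups, with SRRT lower and the other 2 higher in shBry. CDKN2AIP, a partner of the nuclease XRN2, rose by 0.71 and the exosome nuclease gene DIS3 by 0.68 (edgeR adjusted p = 0.000637 and 0.00736).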

How the data were processed

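RNA-Seq of 3 shBry and 3 shNC libraries of MDA-MB-231 cells was analysed. The authors deposited raw counts, the number of reads on each gene symbol, without normalization. The submitters' processing notes name HISAT2 2.0.4, HTSeq and GRCh38, while the annotation, the library kit and the strand setting are not given in the sources used here. Groups came from the labels. After edgeR's filterByExpr with a minimum of 10 counts and TMM scaling, shBry and shNC were compared in edgeR 4.0.16 (R 4.3.3, quasi-likelihood F test), with p-values adjusted after Benjamini and Hochberg over all genes. Standard errors were derived from the log2 fold change and its F statistic. Ratios of antisense to sense were tested with limma 3.58.1 on log2 CPM (prior count 0.5). Both tests were tried on simulated data. Locations and exon overlaps came from GENCODE 29, matched by symbol, older symbol or RefSeq synonym. Depth was 19319411 to 22985371 counts per library, so RNAs near 200 counts had large standard errors.

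Named were the 5 most counted, at most 12 largest rises and 12 largest falls among called antisense RNAs without overlap between groups, all those opposite to a called sense gene, and the 3 decay genes with the smallest adjusted p. Others named were chosen after their values were seen. Members and lists were chosen with earlier results of these data known. Alternatives were DESeq2 1.42.0, library sizes without TMM, other filters, fold change limits, prior counts and member minimums, precision weights, antisense RNAs clear of other exons, the replicate number as a block, and each library left out.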

Additional observations from a re-analysis of the deposited data

How the results depend on the processing

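The 178 antisense RNAs gave 74 calls (53 higher, 21 lower), 65 changed ratios, 42 called sense genes, 5 called decay genes and a median of 0.27. With each library left out in turn the values lay between 64 and 76 (46 to 55 higher, 18 to 22 lower), 46 and 68, 40 and 44, 4 and 6, and 0.24 and 0.31. DESeq2 called 70, all among the 74, and library sizes without TMM gave 73. With a fold change limit of 2, 36 antisense RNAs (26 higher, 10 lower), 26 sense genes (16.4%) and 1 decay gene (3.33%) were called, against 15.0% of all genes. Without a limit, 91 antisense RNAs (64 higher, 27 lower), 92 sense genes and 14 decay genes were called, or 51.1%, 57.9% and 46.7% against 53.3% of all genes. A minimum of 100 counts gave a median of 0.18, and a minimum of 500 gave 42 calls (30 higher, 12 lower) and 42 ratios. The 44 antisense RNAs clear of other exons gave 20 calls (15 higher, 5 lower), 20 ratios and 5 sense genes, these sets being smaller by construction. Ratios changed in 77 of 148 pairs with at least 10 counts in every library, in 79 with voom's precision weights and in 36 without the expression filter, where 551 pairs in place of 264 were adjusted together, and the cause was not tested. The log2 fold change of MMP24-AS1, not called, lay between -0.12 and 0.060 with each library left out, above 0 without shBry replicate 2 and without shNC replicate 1. Over the 33 antisense RNAs named by the rule, 345 of 361 refitted values kept their direction and their side of the threshold, and 14 lost the call (SEPT4-AS1, ATP6V1B1-AS1 and LIPE-AS1). VLDLR-AS1 and LURAP1L-AS1 gave no value where every library needed at least 10 counts, so that setting is missing for them. Same-numbered libraries correlated in their deviations at 0.18, -0.08 and -0.03, and the other combinations lay between -0.22 and 0.23. With 3 libraries in each group, these values cannot decide whether the replicate numbers pair the samples. With the replicate number as a block, 72 antisense RNAs (51 higher, 21 lower), 67 ratios, 42 sense genes and 5 decay genes were called, and the median was 0.26. Depth limits RNAs near 200 counts.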
